A study of Canis lupus familiaris with 15 samples.

Results

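The mRNA levels of 5 genes were followed in the canine corpus luteum (CL), the ovarian gland that makes the progesterone (P4) of pregnancy. They were SNX10 (ENSCAFG00000028917), TCIRG1 (ENSCAFG00000010972), CAPG (ENSCAFG00000007788), ABRACL (ENSCAFG00000000281) and LAP3 (ENSCAFG00000015095), 5 of the 23630 genes counted by RNA-Seq. These genes were chosen by their values in the same dogs. They had among the smallest p-values of genes whose dogs did not overlap, SNX10, LAP3 and TCIRG1 in “luteal regression over luteolysis”, CAPG and SNX10 in “mid-gestation over luteolysis” and ABRACL in “luteolysis over antigestagen”. High levels at luteolysis were therefore selected on, and for these 3 contrasts the values are a description without a test.

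The dogs were healthy cross-breed bitches of 2 to 8 years, with 1 library per dog, and all CL came from ovariohysterectomy. The mid-gestation group (n = 5) was pregnant at days 35 to 40. The antigestagen group (n = 5) was pregnant at days 40 to 45 and received aglepristone, which blocks the P4 receptor, as 2 applications of 10 mg/kg given 24 h apart, with collection 24 h after the last. The luteolysis group (n = 3) was collected at the natural P4 decline before birth, sampled every 6 h from day 58, once 3 measurements in succession lay below 2 to 3 ng/ml. The luteal regression group (n = 2) was not pregnant and was collected at day 65 after ovulation, so that regression and the absence of pregnancy cannot be told apart. A further luteal regression dog of the study was not analysed here. For mid-gestation dog 1 one label carries the group number that the titles give the antigestagen dogs and the study's text gives the luteolysis dogs. Its title and condition give mid-gestation, which was followed. Without this dog, the log2 ratios over antigestagen were −1.10 for CAPG, −0.43 for SNX10, −0.23 for LAP3, −0.16 for TCIRG1 and 0.059 for ABRACL, and no call changed.

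SNX10 encodes a sorting nexin, a protein of endosome membranes. TCIRG1 encodes a membrane subunit of the V-ATPase, the pump that drives protons into endosomes, lysosomes and the resorption space of osteoclasts, and loss of either gene causes osteopetrosis. CAPG encodes the macrophage-capping protein of the gelsolin family, which blocks the growing ends of actin filaments, and ABRACL a small regulator of actin. LAP3 encodes a cytosolic leucine aminopeptidase, which trims peptides and belongs to neither acidification nor actin. Macrophages, which use both processes to take up and digest dead cells, are known residents of the regressing CL, but none of the 5 genes is restricted to them.

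The 15 libraries held 8558743 to 26284315 counted reads, with a median of 18313707. Each of the 5 genes had between 149 and 13200 reads in every dog and had enough reads to enter all contrasts. The widest counting error relative to the level was that of ABRACL in antigestagen dog 1, at 16.6 CPM with a 95% exact Clopper-Pearson interval of 14.01 to 19.4 CPM, which covers counting error only. Levels are given as CPM, the reads of a gene scaled to a common library size with the TMM method, and since gene lengths were not used, they are compared between dogs and not between genes. In whole tissue, fewer cells of a type and less RNA per cell cannot be told apart.

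SNX10 was at 215, 522 and 594 CPM in luteolysis dogs 1, 2 and 3. It was at 128, 137, 195, 134 and 146 CPM in the 5 antigestagen dogs, at 91.6, 104, 89.3, 105 and 141 CPM in the 5 mid-gestation dogs, and at 56.2 and 46.4 CPM in the luteal regression dogs. All luteolysis dogs were therefore above all others and both luteal regression dogs below all others, while the antigestagen and mid-gestation dogs overlapped. Group means (± SD) were 444 ± 202 CPM at luteolysis, 148 ± 27.3 CPM after antigestagen, 106 ± 20.6 CPM at mid-gestation and 51.3 ± 6.93 CPM in luteal regression.

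TCIRG1, the proton pump subunit, was at 76.7, 76.5 and 64.5 CPM in the luteolysis dogs. Its level was 54.4, 50.7, 56.4, 77.7 and 59.8 CPM in the antigestagen dogs, 45.3, 41.9, 63.8, 48.4 and 60.6 CPM at mid-gestation, and 23.9 and 25.2 CPM in luteal regression. Here the luteolysis dogs did not stand apart, since antigestagen dog 4 was higher than each of them. The luteal regression dogs did, with a mean of 24.6 ± 0.907 CPM against 72.5 ± 7.004 CPM at luteolysis, 59.8 ± 10.6 CPM after antigestagen and 52.0 ± 9.67 CPM at mid-gestation.

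CAPG, the actin capping protein, was at 46.6, 212 and 233 CPM in luteolysis dogs 1, 2 and 3. It was at 17.01, 32.0, 34.8, 24.3 and 51.8 CPM after antigestagen, 14.6, 8.48, 13.5, 20.0 and 17.8 CPM at mid-gestation, and 13.0 and 11.0 CPM in luteal regression. Luteolysis dog 1 lay below antigestagen dog 5, and the mid-gestation dogs overlapped with the antigestagen and the luteal regression dogs. The means were 164.0 ± 102 CPM at luteolysis, 32.0 ± 13.1 CPM after antigestagen, 14.9 ± 4.42 CPM at mid-gestation and 12.02 ± 1.40 CPM in luteal regression.

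ABRACL was at 32.8, 103 and 177 CPM in luteolysis dogs 1, 2 and 3. The other dogs lay close together, at 16.6, 27.1, 19.0, 27.7 and 20.3 CPM after antigestagen, 18.9, 23.6, 26.2, 23.9 and 18.7 CPM at mid-gestation, and 15.8 and 12.3 CPM in luteal regression. Luteolysis dog 1 exceeded the highest of these by little, and the highest luteal regression dog lay just under the lowest antigestagen dog. The mean was 104 ± 72.1 CPM at luteolysis, 22.1 ± 4.98 CPM after antigestagen, 22.3 ± 3.32 CPM at mid-gestation and 14.1 ± 2.53 CPM in luteal regression.

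LAP3, the aminopeptidase, was at 259, 275 and 352 CPM in the luteolysis dogs. It was at 142, 144, 171, 202 and 204 CPM after antigestagen, at 136, 121, 166, 134 and 166 CPM at mid-gestation, and at 89.6 and 91.1 CPM in luteal regression. The luteolysis dogs were above and the luteal regression dogs below all others, and the remaining groups overlapped. Its means were 296 ± 49.95 CPM at luteolysis, 172 ± 30.2 CPM after antigestagen, 145 ± 20.5 CPM at mid-gestation and 90.3 ± 1.06 CPM in luteal regression.

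**Figure D1:**
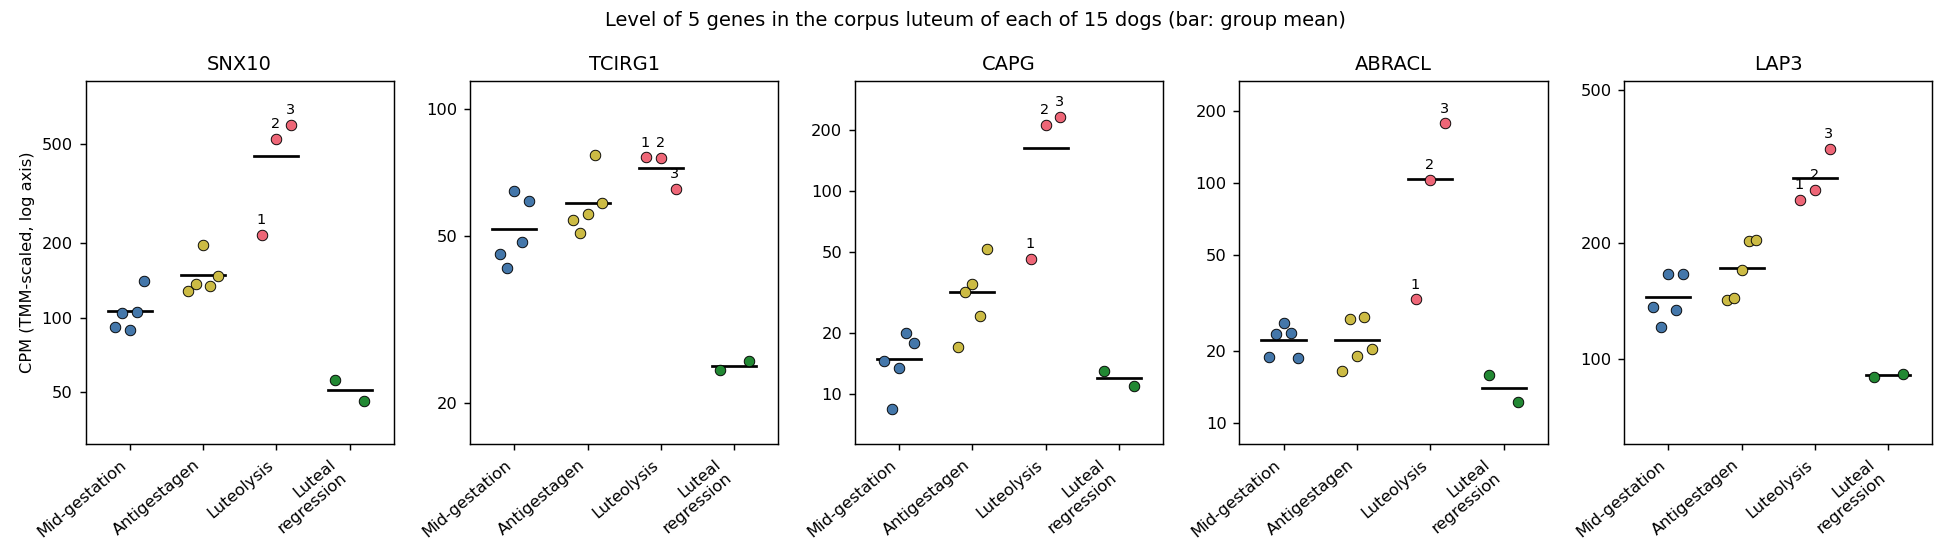
Level of each gene in every dog, as CPM on log axes, with a bar at the group mean and the luteolysis dogs numbered. The 2 luteal regression dogs are lowest for every gene except CAPG, and luteolysis dogs 2 and 3 stand far above dog 1 for SNX10, CAPG and ABRACL but not for TCIRG1.

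By group means, the order was luteolysis, antigestagen, mid-gestation and luteal regression for SNX10, TCIRG1, CAPG and LAP3. For ABRACL, mid-gestation and antigestagen were level. Neighbouring groups without overlap were luteolysis and antigestagen for SNX10, LAP3 and ABRACL, and mid-gestation and luteal regression for SNX10, TCIRG1, LAP3 and ABRACL. Antigestagen and mid-gestation overlapped for every gene.

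The luteolysis dogs divided the genes. Relative to luteolysis dog 1, dogs 2 and 3 held 2.43 and 2.77 times as much SNX10, 4.55 and 5.00 times as much CAPG, and 3.14 and 5.39 times as much ABRACL. For LAP3 these ratios were 1.06 and 1.36, and for TCIRG1 0.997 and 0.840. The lower of dogs 2 and 3 was 2.67 times the highest dog outside luteolysis for SNX10, 4.10 times for CAPG and 3.72 times for ABRACL, but 1.35 times for LAP3 and 0.829 times for TCIRG1. The high group means of SNX10, CAPG and ABRACL thus came mainly from the same pair of dogs, whereas those of LAP3 and TCIRG1 were shared by all 3.

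As a description, the log2 ratios for “luteal regression over luteolysis” were −3.77 (SE 0.64) for CAPG, −3.11 (SE 0.39) for SNX10, −2.89 (SE 0.51) for ABRACL, −1.71 (SE 0.24) for LAP3 and −1.56 (SE 0.23) for TCIRG1. The 2 groups did not overlap for 5 of the 5 genes, with luteolysis higher, and the same held for 19.5% of all genes tested. For “mid-gestation over luteolysis” they were −3.46 (SE 0.43) for CAPG, −2.23 (SE 0.35) for ABRACL, −2.06 (SE 0.26) for SNX10, −1.03 (SE 0.17) for LAP3 and −0.48 (SE 0.17) for TCIRG1. Again 5 of 5 did not overlap, against 5.49% of all genes.

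For “luteolysis over antigestagen” the log2 ratios were 2.36 (SE 0.42) for CAPG, 2.23 (SE 0.35) for ABRACL, 1.58 (SE 0.26) for SNX10, 0.78 (SE 0.18) for LAP3 and 0.28 (SE 0.17) for TCIRG1. Here 3 of 5 genes did not overlap, SNX10, ABRACL and LAP3, against 4.21% of all genes with luteolysis higher. Nothing is read from these shares, since the choice of the genes fixed them in part. Without luteolysis dog 3 the log2 ratio of ABRACL was 1.61 in this contrast, −1.59 over mid-gestation and −2.22 for luteal regression, each a fold change more than 1.5 times smaller.

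The other 3 contrasts did not choose the genes, but they use the same dogs. For “luteal regression over mid-gestation” and “luteal regression over antigestagen” the low luteal regression dogs had also taken part in choosing SNX10, LAP3 and TCIRG1, so that their p-values are not independent of that choice. In “mid-gestation over antigestagen” the same holds for CAPG and SNX10, chosen with the mid-gestation dogs, and for ABRACL, chosen with the antigestagen dogs. The choice likewise fixed in part the overlap shares, median log2 ratios and numbers called of the 5 genes in the luteal regression contrasts. Nothing is read from those shares, medians and numbers. Differentially expressed genes (DEG) were called with the quasi-likelihood test of edgeR where p was below 0.01 and, after Benjamini-Hochberg adjustment over all genes of the contrast, below 0.1.

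“Luteal regression over mid-gestation” addressed whether the genes are lower in the late regressing CL of non-pregnant dogs than in the CL of mid-pregnancy. All 5 genes had the lower mean in luteal regression, CAPG by less than its SE. Among 14685 genes tested, TCIRG1 had a log2 ratio of −1.08 (SE 0.21, edgeR adjusted p = 0.319). SNX10 was at −1.05 (SE 0.33, edgeR adjusted p = 0.319) and LAP3 at −0.68 (SE 0.21, same adjusted p).

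Of the actin regulators, ABRACL had a log2 ratio of −0.66 (SE 0.43, edgeR adjusted p = 0.469) and CAPG one of −0.31 (SE 0.51, edgeR adjusted p = 0.791). With total-count scaling the sign of CAPG turned, at 0.0061. With edgeR 0 of the 5 genes and 0% of all genes were DEG, and 2073 genes had an unadjusted p-value below 0.05, among them SNX10, TCIRG1 and LAP3. With DESeq2's Wald test these 3 were DEG, against 2.26% of all genes, and with limma-voom the same 3, against 18.7%. They are the 3 genes chosen with the luteal regression dogs, so nothing is read from their calls beside these shares. The groups did not overlap for 4 of 5 genes (all but CAPG), against 16.4% of all genes with mid-gestation higher. The median log2 ratio of the 5 genes was −0.68, and that of all genes −0.02.

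For “luteal regression over antigestagen” all 5 genes again had the lower mean in luteal regression, and the groups did not overlap for 5 of 5, against 15.4% of all genes. Among 14578 genes tested, SNX10 had a log2 ratio of −1.53 (SE 0.34, edgeR adjusted p = 0.149) and TCIRG1 one of −1.28 (SE 0.22, edgeR adjusted p = 0.133). LAP3 was at −0.93 (SE 0.22, edgeR adjusted p = 0.154), CAPG at −1.41 (SE 0.54, edgeR adjusted p = 0.229) and ABRACL at −0.66 (SE 0.43, edgeR adjusted p = 0.426).

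No gene of the 5 passed the threshold there with edgeR (0 of 5, against 0% of all genes), although 2496 genes had an unadjusted p-value below 0.05, including all of the 5 but ABRACL. Of the fits with a dog left out, that without antigestagen dog 1, the shallowest library, gave the most DEG. There 91 genes were DEG with edgeR, SNX10, TCIRG1 and LAP3 among them, with adjusted p-values of 0.0954, 0.0723 and 0.0949. DESeq2 called the same 3 genes with all dogs, against 6.31% of all genes, and limma-voom called these 3 and CAPG, against 16.5%. SNX10, TCIRG1 and LAP3 were again those chosen with the luteal regression dogs, and nothing is read from these calls. The median log2 ratio of the 5 genes was −1.28, against −0.02 over all genes.

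“Mid-gestation over antigestagen” compared the CL of mid-pregnancy without and with aglepristone, which blocks the P4 receptor. The treated dogs were also at later days of pregnancy, so that treatment and day cannot be told apart. CAPG was at 14.9 CPM at mid-gestation and 32.0 CPM after aglepristone, a log2 ratio of −1.10 (SE 0.38, edgeR adjusted p = 0.593). SNX10 had a log2 ratio of −0.48 (SE 0.23, edgeR adjusted p = 0.733), LAP3 of −0.25 (SE 0.15, adjusted p = 0.791), TCIRG1 of −0.20 (SE 0.15, adjusted p = 0.838) and ABRACL of 0.01 (SE 0.31, adjusted p = 1.00). The sign for ABRACL turned with total-count scaling and with some dogs left out.

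Neither the 5 genes nor all 14399 genes held a DEG in this contrast (0 of 5 and 0% with edgeR), and 980 genes had an unadjusted p-value below 0.05, of which CAPG was the only one of the 5. DESeq2 and limma-voom also called 0 of the 5, against 0.604% and 0.125% of all genes. For 0 of 5 genes did the groups not overlap with antigestagen higher, against 0.667% of all genes. The difference in CAPG did not hold against the spread between dogs after adjustment, which does not show that the 2 groups were alike.

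**Figure D2:**
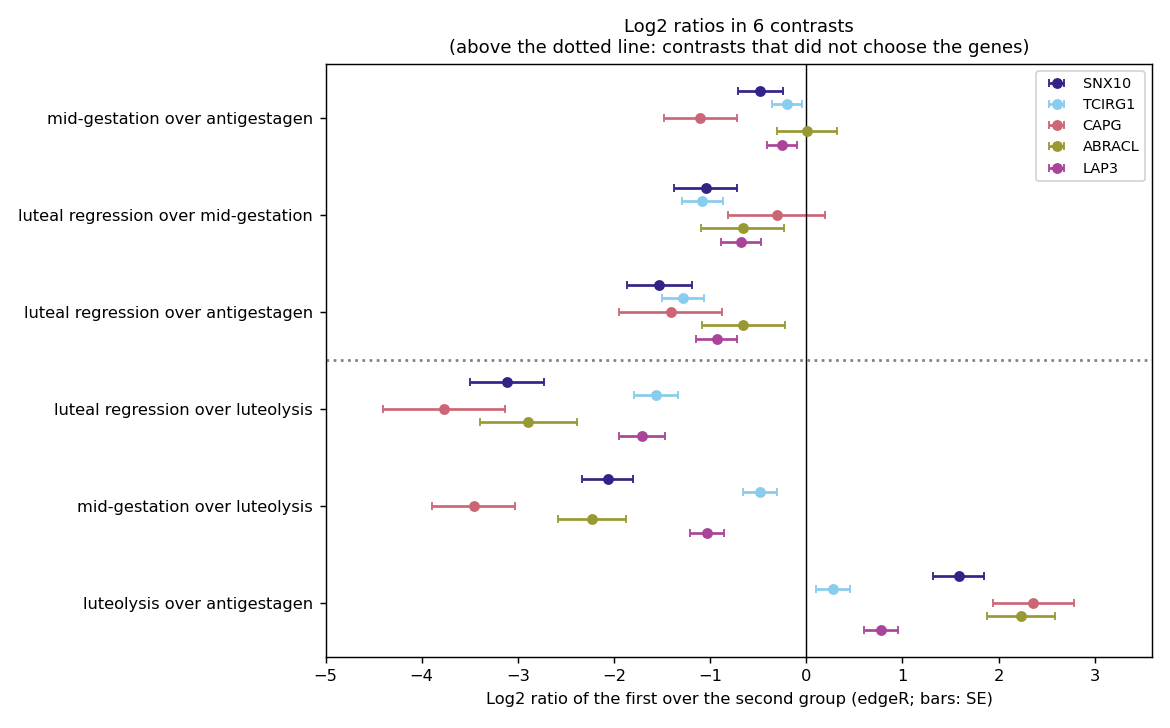
Log2 ratios of the 5 genes in 6 contrasts, positive where the group named first was higher, with bars of 1 SE from the edgeR fit. Above the dotted line, none of the ratios was called by edgeR, those of luteal regression lying between −1.53 and −0.31, and below it stand the contrasts the genes were chosen on.

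Over the 15 dogs, the 10 pairs of these genes had a median Pearson r of log2 CPM of 0.863 (0.542 to 0.924). All points share the 4 groups, and much of this value came with them. The choice of the genes by their differences between groups also fixed it in part. After subtracting the group means the median was 0.463, and it was 0.692 over the 12 dogs outside luteolysis.

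With group means subtracted, SNX10, CAPG and ABRACL correlated at 0.785, 0.687 and 0.681, and TCIRG1 with LAP3 at 0.616, while TCIRG1 was at −0.115 with SNX10, −0.0234 with CAPG and −0.0949 with ABRACL. LAP3 lay between, at 0.526 with CAPG, 0.399 with ABRACL and 0.384 with SNX10. Outside luteolysis, TCIRG1 and LAP3 reached 0.956. These are descriptions over 12 to 15 dogs, in which luteolysis dog 1 against dogs 2 and 3 weighs heavily.

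The genes whose levels were most like each of the 5 were sought among the 14921 other fitted genes, of which only those with a name are given. For SNX10 these were SLC41A2, a magnesium transporter (r = 0.949), SYTL2, a synaptotagmin-like protein of vesicle traffic (0.947), and the small GTPase gene RHOD (0.942). SYTL2 was at 30.8, 226 and 335 CPM in luteolysis dogs 1, 2 and 3, and its group means elsewhere were 31.5 CPM after antigestagen, 19.2 CPM at mid-gestation and 8.99 CPM in luteal regression. Its dog 1 was thus near the antigestagen level, as for CAPG.

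For CAPG the closest were CCKBR, a receptor for gastrin and cholecystokinin (r = 0.952), RHOD again (0.940) and the histone deacetylase gene HDAC3 (0.939). CCKBR was at 14.1 CPM in luteolysis dog 1 and at 78.4 and 118 CPM in dogs 2 and 3. For ABRACL they were METTL1, a tRNA methyltransferase (0.972), ANXA2, the membrane-binding annexin A2 (0.969), and SLC2A1, the glucose transporter GLUT1 (0.952). ANXA2 was at 465 CPM in luteolysis dog 1 and at 2283 and 4126 CPM in dogs 2 and 3, whereas the other group means lay between 345 and 438 CPM.

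For LAP3 the closest gene was ARPC1B, a subunit of the Arp2/3 complex that branches actin filaments (r = 0.971), followed by FAM20B, a xylose kinase (0.961), and the tetraspanin CD82 (0.961). ARPC1B was at 104, 125 and 174 CPM in the luteolysis dogs, with means of 76.6 CPM after antigestagen, 66.4 CPM at mid-gestation and 43.7 CPM in luteal regression. TCIRG1 was followed most closely by TMEM63B (0.927), FAM167B (0.909) and the cyclin gene CCND3 (0.904). TMEM63B was at 145, 138 and 135 CPM in the luteolysis dogs, 147 CPM after antigestagen, 135 CPM at mid-gestation and 62.7 CPM in luteal regression, so that it differed between luteal regression and the rest, with little between the other groups.

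Each gene's likeness to the other 4 could be ranked in the same way. From SNX10, CAPG was the 5th and LAP3 the 6th closest of 14921 genes, whereas TCIRG1 was the 458th. From TCIRG1, LAP3 was the 18th, and ABRACL the 1440th. All 5 genes were chosen for their differences between these groups, so that the choice fixed these ranks in part. With group means subtracted, SNX10 correlated at 0.785 with CAPG and at 0.384 with LAP3.

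Other genes of the same roles could be followed only where an identifier was named. Names were those of genes the study called in these samples, so these lists hold few of their genes and are not independent of the samples. Nothing is read from their counts by direction. Of all genes tested, 51.2% were lower in luteal regression than at mid-gestation, and 51.5% lower than after antigestagen. For luteal regression over luteolysis 53.2% were negative, and for luteolysis over antigestagen 47.9%. Of 24 V-ATPase genes other than TCIRG1, 7 had a name, and 0 of 7 were DEG by edgeR in each of the 3 tested contrasts. In luteal regression 5 of 7 had the lower mean, both against mid-gestation (median log2 ratio −0.38) and against antigestagen (−0.51).

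The V-ATPase genes did not share 1 direction. ATP6V0B and ATP6V0C, which encode subunits of the proton-carrying ring, were close to TCIRG1 in luteal regression, with log2 ratios over mid-gestation of −1.33 (SE 0.36) and −1.21 (SE 0.32, edgeR adjusted p = 0.319 for both). Their mean levels were 91.9 against 231 CPM and 68.1 against 157 CPM. ATP6V0A4, which encodes the counterpart of the TCIRG1 protein typical of kidney, had the opposite sign, with means of 9.97 and 3.36 CPM and a log2 ratio of 1.57 (SE 0.41, edgeR adjusted p = 0.319).

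ATP6V0A4 had a log2 ratio of 1.90 (SE 0.41, edgeR adjusted p = 0.149) over antigestagen. ATP6V0A2, a further counterpart, was at 0.42 (SE 0.21) over mid-gestation and 0.03 (SE 0.22) over antigestagen. ATP6V0D2, which osteoclasts use, was at 5.52 CPM in luteal regression and 11.6 CPM at mid-gestation (log2 ratio −1.07, SE 0.64, edgeR adjusted p = 0.433). Of the luteolysis values, 6 of 7 were higher than after antigestagen, from 0.39 for ATP6V0B to 0.92 for ATP6V0D2, and ATP6V0C was at −0.06, as a description.

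**Figure D3:**
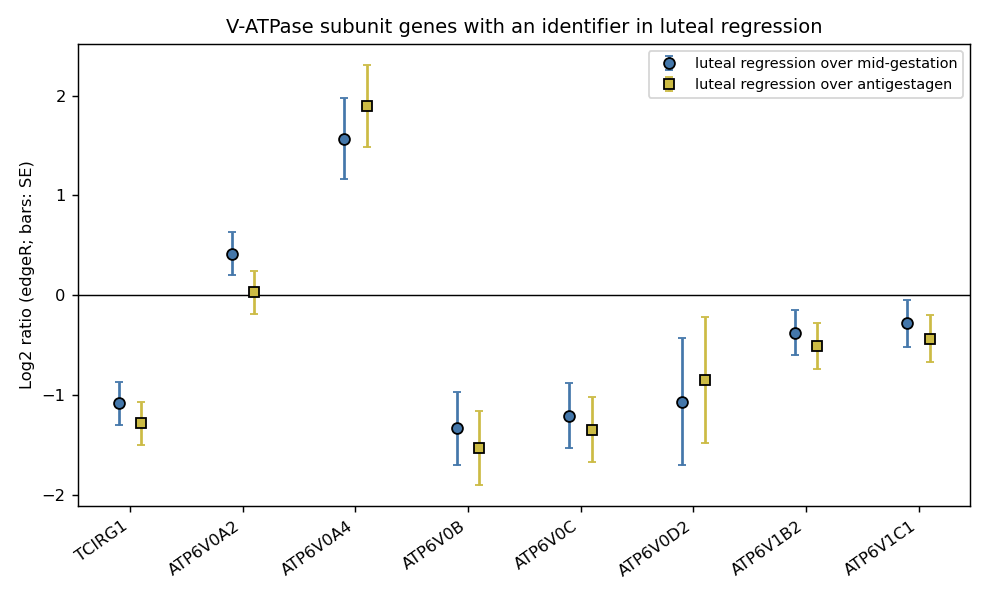
Log2 ratio (bars: SE) of TCIRG1 and the 7 other V-ATPase genes with a name for luteal regression over mid-gestation (circles) and over antigestagen (squares). ATP6V0B, ATP6V0C and TCIRG1 lie between −1.53 and −1.08, ATP6V0A4 lies at 1.57 and 1.90, and none was called by edgeR.

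Of 37 genes of the lysosome and phagosome, 10 had a name and 0 were DEG by edgeR in the tested contrasts. In luteal regression 9 of 10 had the lower mean, with a median log2 ratio of −0.30 over mid-gestation and −0.39 over antigestagen. CD63, a tetraspanin of lysosomes, was at −0.88 (SE 0.29) and −1.07 (SE 0.29) in these 2 contrasts, and CTSB, the protease cathepsin B, at −0.85 (SE 0.29) and −1.03 (SE 0.30). CLCN7, the chloride transporter that accompanies the proton pump, was at −0.18 (SE 0.18) and −0.39 (SE 0.18).

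As a description, the log2 ratio of luteolysis over antigestagen was positive for the 5 genes, but for the lysosome list it was negative in 10 of 10 genes, with a median of −0.54, from −0.03 for CTSB to −0.91 for MITF and PSAP. MITF encodes a transcription factor of melanocytes and osteoclasts, and PSAP the precursor of the saposins. For luteal regression over luteolysis the list was mixed, with 6 of 10 genes higher in luteal regression and a median of 0.12, although CTSB at −1.005 and CD63 at −0.97 had the sign of the 5 genes.

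Of 29 actin regulators used by leukocytes, 14 had a name, most of which, such as the Arp2/3, cofilin and profilin genes, act in every cell type. In luteal regression 14 of 14 had a lower mean than after antigestagen (median −0.74) and 12 of 14 a lower mean than at mid-gestation (median −0.45), with 0 DEG by edgeR. ARHGDIB had log2 ratios of −1.54 (SE 0.37) over antigestagen and −1.27 (SE 0.37) over mid-gestation, and ARPC5L, an Arp2/3 subunit, of −0.84 (SE 0.26) and −0.76 (SE 0.26) in the same order. CORO1A, which encodes the leukocyte coronin, had ratios of −1.11 (SE 0.41) and −1.05 (SE 0.41), CFL1, the actin-severing cofilin, of −0.51 (SE 0.23) and −0.43 (SE 0.23), and LCP1, the actin-bundling L-plastin, of −0.67 (SE 0.42) and −0.16 (SE 0.41). In luteolysis over antigestagen, as a description, 13 of 14 were positive with a median of 0.73. Of those typical of blood cells, HCLS1 was at 0.94, LCP1 at 0.80, MYO1F at 0.51, CORO1A at 0.26 and ARHGDIB at −0.13.

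Of 17 actin capping and gelsolin genes other than CAPG, 5 had a name. CAPZA1 and CAPZA2, which encode the other capping protein of filament ends, were at 94.9 ± 2.82 and 231 ± 55.0 CPM at luteolysis, against 67.6 ± 8.89 and 195 ± 44.2 CPM after antigestagen. In luteal regression over mid-gestation they had log2 ratios of −0.17 (SE 0.17) and −0.47 (SE 0.23). As a description, luteolysis over antigestagen had log2 ratios of 0.57 for TWF1, −0.63 for ADD1 and −1.21 (SE 0.71) for VIL1, so that 3 of the 5 were higher and 2 lower at luteolysis.

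Of 5 NADPH oxidase genes, which make the oxidative burst of phagocytes, 2 had a name and 0 were DEG by edgeR. Both had a lower mean in luteal regression, with log2 ratios over antigestagen of −1.67 (SE 0.58) for RAC2 and −1.63 (SE 0.53) for NCF4. Of 29 sorting nexins other than SNX10, 4 had a name, and 2 of 4 had the lower mean in luteal regression against both mid-gestation and antigestagen. SNX27 was at 0.49 (SE 0.20) and SNX25 at −0.75 (SE 0.30) over mid-gestation. Of 21 genes of peptide trimming and antigen processing, 3 had a name. DPP3, a dipeptidyl peptidase, was at −0.62 (SE 0.21) and TAP1, the peptide transporter, at −0.23 (SE 0.22) over mid-gestation.

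The 5 genes were set beside markers of the cells a CL can hold. Of 14 macrophage markers, 5 had a name (MRC1, C1QB, C1QC, TYROBP and AIF1), and none of these was at 0 in any dog. Their summed level was 373 to 437 CPM at luteolysis, 341 to 1017 CPM after antigestagen, 326 to 801 CPM at mid-gestation and 166 to 209 CPM in luteal regression. The sum in luteolysis dogs 1, 2 and 3 was 437, 374 and 373 CPM, but it is carried by MRC1 and the complement genes C1QB and C1QC, and the markers differed in direction. MRC1, the mannose receptor, reached 207 CPM in luteolysis dog 2 and TYROBP, a signalling adaptor, 32.8 CPM in luteolysis dog 3. Only in that 1 dog did each exceed its highest value outside luteolysis, of 184 and 31.0 CPM. AIF1 did not, with at most 18.4 CPM at luteolysis and 21.8 CPM after antigestagen. C1QB and C1QC went down to 65.0 and 62.3 CPM, below the lowest antigestagen and mid-gestation dogs at 111 and 106 CPM. MRC1, TYROBP and AIF1 were each higher in luteolysis dogs 2 and 3 than in dog 1, as SNX10, CAPG and ABRACL were, while C1QB and C1QC were lower. In luteal regression the markers and the 5 genes were low together, and the markers' part in that result was not tested.

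Across the 12 dogs outside luteolysis the macrophage sum had a Pearson r of 0.921 with LAP3 and 0.894 with TCIRG1, but of 0.623 with SNX10, 0.602 with ABRACL and 0.504 with CAPG. Over all 15 dogs these values were 0.460, 0.724, 0.208, 0.0537 and 0.112 in the same order. They are descriptions over libraries that share groups. With group means subtracted, r was 0.721 for LAP3, 0.732 for TCIRG1, −0.209 for SNX10, −0.0306 for ABRACL and 0.115 for CAPG. Other marker sums were also correlated with the genes in this way. The endothelial sum was at 0.658 for LAP3, 0.519 for TCIRG1, 0.512 for SNX10, 0.424 for ABRACL and 0.609 for CAPG. For the neutrophil sum r was 0.0817, −0.129, 0.644, 0.619 and 0.643 in the same order. For the T cell sum it was 0.471, 0.673, −0.459, −0.137 and −0.173. For the prolactin receptor gene PRLR it was 0.553, 0.514, 0.348, 0.347 and 0.429. Over the 12 dogs outside luteolysis, the endothelial sum had an r of 0.839, 0.822, 0.669, 0.427 and 0.593, in the same order. There the neutrophil sum was at 0.653, 0.677, 0.777, 0.524 and 0.632, and PRLR at 0.712, 0.668, 0.682, 0.492 and 0.763. The T cell sum was at 0.526, 0.519, 0.0847, 0.539 and 0.0621. The fibroblast sum lay between −0.174 and −0.0182.

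**Figure D4:**
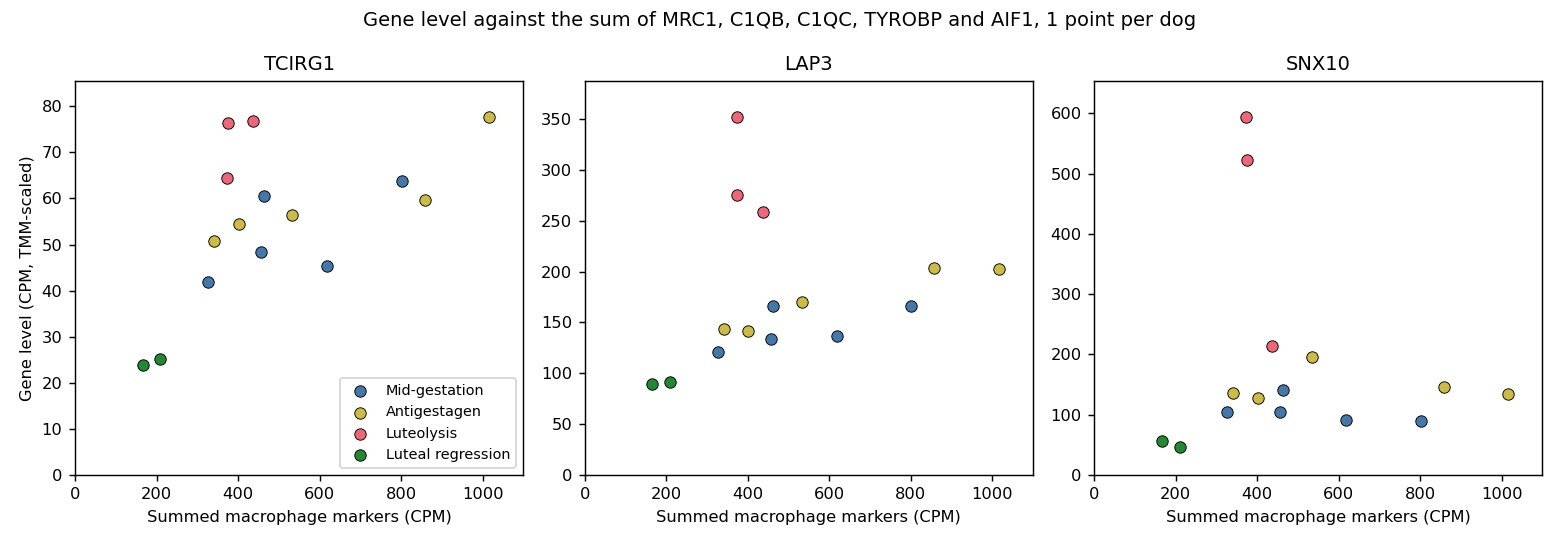
TCIRG1, LAP3 and SNX10 (CPM) against the summed CPM of 5 macrophage markers, with 1 point per dog coloured by group. The luteal regression dogs lie lowest on both axes, and the luteolysis dogs have middling marker sums of 373 to 437 CPM beside the highest levels of LAP3 and SNX10.

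Of 7 neutrophil markers, 2 had a name (CSF3R and S100A9), and neither of these was at 0 in any dog. Their sum was 2.85, 67.3 and 31.6 CPM in luteolysis dogs 1, 2 and 3. Dog 1 was the lowest of these, as for SNX10, CAPG and ABRACL, which were highest in dog 3. The 2 markers differed in their highest dog. Relative to the mean over 15 dogs, the log2 CPM of CSF3R was 3.30 in dog 2 and 1.27 in dog 3. For S100A9 these values were 1.58 and 1.65, so that dog 3 was the highest, as for those genes. The sum was 15.3 to 35.1 CPM after antigestagen, 4.41 to 29.96 CPM at mid-gestation and 0.718 to 4.40 CPM in luteal regression. Luteolysis dog 1 thus lay below all antigestagen and mid-gestation dogs, whereas for SNX10 and ABRACL it lay above them. CSF3R, the receptor that marks neutrophils, was at 20.5 ± 24.9 CPM at luteolysis and 1.36 ± 1.19 CPM in luteal regression.

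The sum of 3 endothelial markers with a name, of 6 in all (PECAM1, VWF and TEK), was also lowest in luteolysis dog 1. It was 365, 798 and 718 CPM in luteolysis dogs 1, 2 and 3, 231 to 243 CPM in luteal regression, 377 to 775 CPM after antigestagen and 215 to 534 CPM at mid-gestation. The part of the neutrophil and endothelial markers in these results was not tested. The 2 T cell markers with a name, of 7, summed to 2.55 to 4.88 CPM at luteolysis, 5.23 to 13.0 CPM after antigestagen, 7.37 to 19.7 CPM at mid-gestation and 5.90 to 6.94 CPM in luteal regression. CD2, an adhesion receptor of T cells, was at most 4.204 CPM at luteolysis and at least 4.41 CPM in every other dog.

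The 4 fibroblast markers with a name, of 6 (COL1A1, COL1A2, COL3A1 and PDGFRA), summed to 1902 to 4577 CPM at luteolysis, 3358 to 9207 CPM after antigestagen, 3682 to 14901 CPM at mid-gestation and 5361 to 7034 CPM in luteal regression. All 4 were lower at luteolysis than at mid-gestation by group, with a median log2 ratio of mid-gestation over luteolysis of 1.37. PRLR, the prolactin receptor of luteal cells, was at 74.8 to 95.2 CPM at luteolysis, 121 to 175 CPM after antigestagen, 67.3 to 145 CPM at mid-gestation and 65.8 to 104 CPM in luteal regression. The haemoglobin gene HBA overlapped between all groups, with up to 790.1 CPM after antigestagen. None of these markers was at 0 in any dog, and their part in the levels of the 5 genes was not tested.

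**Figure D5:**
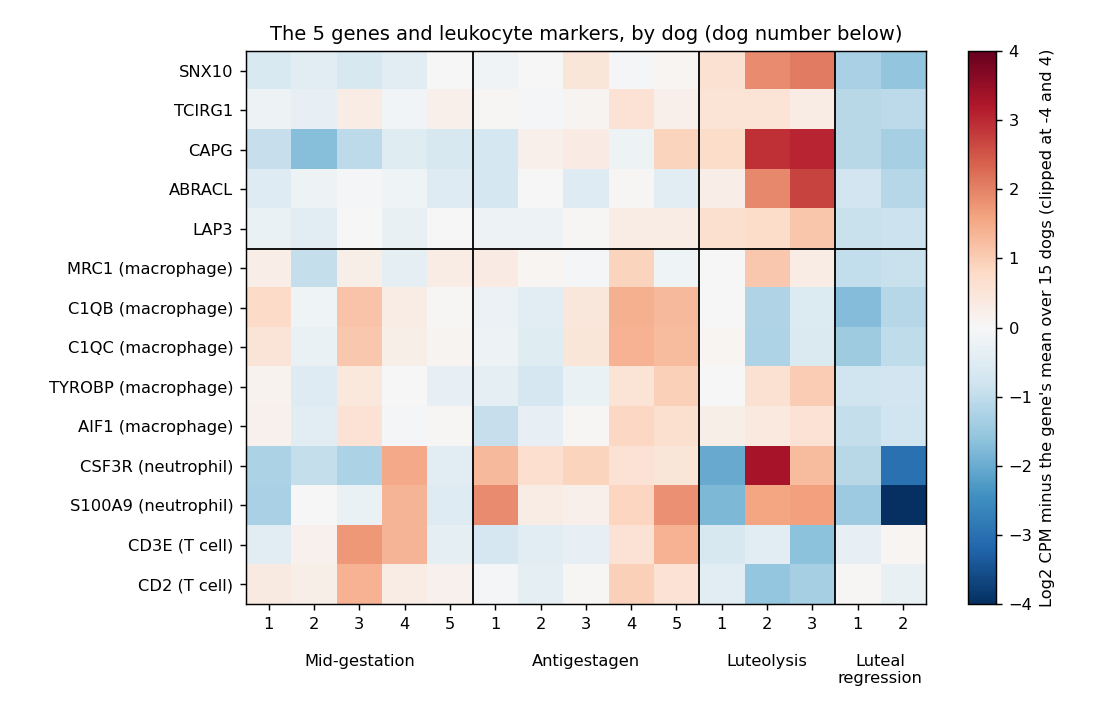
Log2 CPM of the 5 genes and of leukocyte markers, less each gene's mean over 15 dogs, with 1 column per dog. SNX10, CAPG and ABRACL are reddest in luteolysis dogs 2 and 3, where the neutrophil markers are redder than in dog 1, while the C1Q genes are bluer there and most rows are blue in luteal regression.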

How the data were processed

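Per the labels, poly-A RNA of CL (RNA integrity number 7.2 to 9.5) was read from a single end over 125 bases. The authors used STAR 2.5.1b with CanFam3.1 and featureCounts, and deposited a raw count for each of 23630 Ensembl genes, where values from 10000 upwards keep only 4 significant digits. Conditions came from the labels. Counting settings for strand and for reads shared between genes were not given in the sources used here.

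The counts of all 15 dogs were fitted in edgeR 4.0.16 (R 4.3.3) with TMM scaling, for the 14922 genes averaging 10 reads or more in a group. Quasi-likelihood F-tests, two-sided, used the genes reaching this in either group of a contrast, with Benjamini-Hochberg adjustment. Each SE is the log2 ratio divided by the square root of F. Alternatives used DESeq2 1.42.0, limma 3.58.1, other scalings, filters and thresholds, and dogs left out. Correlations used log2 CPM with a prior count of 2. The code was tested on simulated data.

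Names came from the study's additional files, and 2967 fitted genes had one. Named genes were the 5 members, genes fixed by role, those of smallest p-value per list and direction, the 3 most correlated per member and fixed markers. Members and lists were chosen with earlier results of these data known. Dogs are separate animals, numbered by order alone. Sequences and coordinates were not used here, and 2 genes of the lists are not reported here.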

Additional observations from a re-analysis of the deposited data

Results flagged for a closer look

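SNX10 was at 195.18 CPM in antigestagen dog 3, which stood apart from the other antigestagen dogs. Its gap to the next dog made up 0.722 of the range of the group, above Dixon's 95% critical value for 5 samples. It was the only one of 10 groups of 5 dogs examined, and chance flags about 1 in 20 groups. Without this dog the log2 ratio of SNX10 in “mid-gestation over antigestagen” was −0.36.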

How the results depend on the processing

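Of 270 alternative values for log2 ratios with a test, 242 kept their sign and their side of the threshold, 20 came past it and 8, none of them called, reversed, and of 255 for those without a test, 252 moved by less than the spread between dogs. The reversed ones were of ABRACL in “mid-gestation over antigestagen”, at −0.048 with total counts and from −0.079 to 0.090 with a dog left out, and of CAPG in “luteal regression over mid-gestation”, at 0.0061 with total counts. Total counts shifted the median of all genes to 0.31 in that contrast and to 0.26 and 0.27 in luteal regression over antigestagen and over luteolysis, and moved LAP3 and TCIRG1 in the last to −1.40 and −1.25. With a dog left out LAP3 ranged there from −1.77 to −1.51.

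Past the threshold came the following. In “luteal regression over mid-gestation”, DESeq2, the 2 groups alone and limma-voom gave −1.03, −1.04 and −1.02 for SNX10, −1.07, −1.07 and −1.07 for TCIRG1, and −0.66, −0.67 and −0.67 for LAP3, so that 3 of the 5 genes were DEG in each, among 332, 770 and 2741 of all genes. In “luteal regression over antigestagen”, DESeq2 and limma-voom gave −1.51 and −1.63 for SNX10, −1.26 and −1.20 for TCIRG1, and −0.91 and −0.85 for LAP3, and limma-voom −1.37 for CAPG. These were 3 and 4 of the 5 genes, among 920 and 2408 of all. DESeq2's size factors gave −1.26 for TCIRG1, 1 of the 5 genes and of 3 in all. Upper-quartile scaling gave 2 DEG in all, the 2 groups alone 1 and a mean count of at least 50 also 1. In “mid-gestation over antigestagen” DESeq2 gave 87 DEG and limma-voom 18. The cause was not tested. Since SNX10, TCIRG1 and LAP3 were chosen with the luteal regression dogs, nothing is read from their calls in these fits.

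With a dog left out, “luteal regression over antigestagen” ranged from −1.68 to −1.40 for SNX10, −1.34 to −1.14 for TCIRG1 and −0.99 to −0.83 for LAP3, with 0 to 3 of the 5 genes and 0 to 91 of all genes as DEG. The highest numbers came without antigestagen dog 1. The other contrasts had 0 to 1 (luteal regression over mid-gestation) and 0 to 8 DEG (mid-gestation over antigestagen). With 1 luteal regression dog left, its spread was taken from the other groups. The smallest and largest adjusted p-values of TCIRG1 over all alternatives were 0.000395 and 0.909 over mid-gestation and 3.26e-06 and 0.702 over antigestagen, the fits being DESeq2 for the smallest. The median correlation between the 5 genes was 0.463 with group means subtracted and 0.692 without the luteolysis dogs.

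No paired analysis was possible because the labels give no number, litter or day that ties dogs of different groups together. With 2 luteal regression and 3 luteolysis dogs, the spread within these groups is poorly known. All sample titles share 1 prefix and give no further batch, and the methods name permits of more than 1 site without assigning dogs to them, so that site could not be set against the groups. Names covered a minority of most lists, so their counts describe genes already called in these samples.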
